A study of Mus musculus with 15 samples.

Results

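The miR-125 family was examined in the midbrain of mice carrying the A30P form of alpha-synuclein, a presynaptic protein whose A30P form is linked to familial Parkinson's disease. Of the 396 miRNA arms in the deposited small RNA sequencing table, 6 were members, taken as every arm named miR-125a, miR-125b or miR-351. They were 3 arms from the 5′ side of their hairpins (5p), mmu-miR-125a-5p, mmu-miR-125b-5p and mmu-miR-351-5p, and 3 from the 3′ side (3p), mmu-miR-125a-3p, mmu-miR-125b-1-3p and mmu-miR-125b-2-3p, named below without the mouse prefix. The tested group held 7 midbrain samples from A30P alpha-synuclein mice with the genotype label +/+ (replicates 1, 2, 3, 4, 6, 7 and 8), and the group it was set against held 8 from wild-type (WT) mice, replicates 1 to 8. All were C57BL/6 mice aged 6 months. The labels give no promoter for the A30P form. They do not tie each sample to a separate animal either, and p-values therefore describe only the spread among these libraries, part of which may be technical.

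The miR-125 miRNAs are the mammalian homologs of lin-4, the founding miRNA of Caenorhabditis elegans, which times larval development by repressing lin-14 and lin-28. In mammals the family represses Lin28, acts in neuronal differentiation and is abundant in adult brain. A miRNA hairpin is cut into a 5p and a 3p strand, the strand loaded into Argonaute persists, and its seed (bases 2 to 8) leads target pairing. In this family the 5p strand is the guide and the 3p strand is mostly degraded.

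The mature sequences from RefSeq (GRCm38.p6), matched by name for 6 of the 6 members, are shown because the seed groups the 5p arms and separates the 3p arms. Capitals mark the seed.
miR-125a-5p: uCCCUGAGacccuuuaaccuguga
miR-125b-5p: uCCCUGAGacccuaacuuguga
miR-351-5p: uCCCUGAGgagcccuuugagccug
miR-125a-3p: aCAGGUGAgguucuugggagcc
miR-125b-1-3p: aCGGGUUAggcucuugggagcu
miR-125b-2-3p: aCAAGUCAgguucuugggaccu

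The 3 5p arms shared the seed CCCUGAG, and no other listed miRNA with a sequence in that table (347 of the 396 had one) carried it. miR-125a-5p and miR-125b-5p were identical over their first 13 bases and differed only towards the 3′ end, while miR-351-5p shared 8 bases with each. The seeds of the 3p arms all differed. They shared the 8-base run UCUUGGGA at positions 12 to 19, counted from the 5′ end. miR-125b-5p has the same sequence in the hairpins Mir125b-1 and Mir125b-2, so its reads cannot be assigned to either, whereas the 3p arms are specific to a hairpin. The sources used here do not give how reads that fit more than 1 family member were counted.

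The hairpins Mir125a and Mir125b-1 are shown with both arms in capitals, since the comparison of arms below rests on these pairs.
Mir125a: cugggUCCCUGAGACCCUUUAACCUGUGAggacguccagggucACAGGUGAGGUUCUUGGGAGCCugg
Mir125b-1: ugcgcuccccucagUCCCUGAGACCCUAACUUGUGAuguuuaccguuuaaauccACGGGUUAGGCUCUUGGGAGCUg

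In GENCODE vM21 (GRCm38; the submitters' processing notes name mm9), Mir125a lies on the plus strand at chr17:17830812-17830879 and overlaps an exon of the protein-coding gene Spaca6. Mir125b-1 lies at chr9:41581926-41582002 on the plus strand, in introns of the long transcripts 3110039I08Rik and Gm49317. It also overlaps an exon of Gm28119 on the same strand. Mir125b-2 lies at chr16:77646273-77646343 on the plus strand, in an intron of the noncoding host gene Mir99ahg. It also overlaps an exon of C130023A14Rik on the same strand. Mir351 lies at chrX:53053255-53053353 on the minus strand, with no overlapping host gene annotated.

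The A30P libraries were the shallower ones. A30P libraries held 21731 to 3500431 reads of listed miRNAs and WT libraries 724813 to 9762286. A30P replicates 1, 2, 4 and 7 held under 100000 reads. Values are normalized counts, that is, reads over the size factor of their library. In these units 1 read weighed 0.174 to 56.4 in A30P libraries and 0.0848 to 0.806 in WT libraries. A letter in the column names separates all A30P libraries from all WT libraries, and if it marks a batch, batch and genotype cannot be told apart. Among markers of the labelled tissue, the 4 neuronal miRNAs sought took 0.433% to 8.28% of listed reads in A30P libraries and 8.72% to 20.0% in WT libraries. The 2 oligodendrocyte miRNAs took 0.106% to 0.867% in A30P libraries and 0.395% to 1.06% in WT libraries. Of markers of other cell types, the 2 listed muscle miRNAs (of 3 sought) took 0.0276% to 0.468% in A30P and 0.0306% to 0.284% in WT libraries, and miR-451a, the listed erythroid miRNA of 2 sought, 0.00429% to 0.121% and 0.00467% to 0.0180%. The single listed leukocyte marker of 3 sought, miR-150-5p, took at most 0.0321% in A30P and 0.114% in WT libraries, and miR-122-5p of liver 0.00901% and 0.00546%. The 3 vessel markers took 0.377% to 1.88% in A30P and 0.702% to 2.45% in WT libraries together, but miR-143-3p rose (log2 fold change 1.6, limma adjusted p = 0.0013, and 0.0595 with total-count scaling), while miR-126a-3p and miR-145a-5p fell (-2.42 and -3.51, adjusted p = 0.00044 and 0.0018). The falls of both were not called by edgeR under TMM scaling (adjusted p = 0.0749 and 0.187). The marker miR-204-5p, listed for choroid plexus, took 0.00366% to 0.120% in A30P and 0.144% to 0.408% in WT libraries. The epithelial miR-203-3p took at most 0.00229% in A30P and 0.0112% in WT libraries, and the 2 endocrine markers 0.0371% and 0.0262%. The part of batch and cell makeup in the results below was not tested, and in bulk tissue fewer cells of a type and less RNA per cell cannot be told apart.

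Both abundant guide strands were far lower in A30P midbrain, while the 3p strand of the miR-125b-1 hairpin was not. Of the 6 members, 5 fell and 1 rose by limma on log2(normalized count + 1), at a Benjamini-Hochberg adjusted p of 0.05 over all 396 miRNAs. By the same rule 79.3% of all miRNAs were called, 71.0% lower and 8.33% higher, so falls were the background by this fit. The median log2 fold change of the members was -4.18, and that of all miRNAs was -2.57. By edgeR's quasi-likelihood test on the recovered reads with TMM scaling, 2 members fell (miR-125a-5p and miR-125b-5p) and 1 rose (miR-125b-1-3p), where 55.0% of the 318 tested miRNAs were called, 35.5% lower and 19.5% higher. With total-count scaling (to all listed reads) the same 5 members fell and miR-125b-1-3p was not called, where 84.6% of all miRNAs were called, 79.0% lower and 5.56% higher. By the authors' deposited table, 4 members fell and neither miR-125b-1-3p nor miR-125b-2-3p was called, where 43.9% of all miRNAs were called, 34.1% lower and 9.85% higher. The background itself depended on the method. The all-miRNA median log2 fold change of -2.57 in limma shifted by 0.74 with TMM scaling and by -0.35 with total-count scaling, and with TMM scaling edgeR had a median of -0.75 and limma-voom one of -0.13, over the miRNAs those fits tested. The authors' deposited table had a median of -0.75. Calls in limma-voom were nearly balanced, with 77 miRNAs higher and 88 lower. Against the edgeR median of -0.75, miR-125a-5p was at -3.74 and miR-125b-5p at -3.94.

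Of the guide strands, mmu-miR-125a-5p had a lowest, median and highest value of 551, 1347 and 2339 normalized counts in A30P libraries, against 19793, 24299 and 55230 in WT libraries. The groups did not overlap, and the lowest WT library stood 8.46-fold above the highest A30P library. Every A30P library lay below every WT library for 23.7% of all miRNAs, and above every WT library for 4.04%. The log2 fold change was -4.63 (SE 0.34, limma adjusted p = 4.1e-09, lower in 7 of 7 A30P samples), the rank of 2 among the 396 miRNAs by p. Depth did not limit this: at its WT mean level miR-125a-5p would have had 504 reads in the shallowest A30P library, where 14 were found, and 163419 in the deepest, where 13431 were found.

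The other guide strand, mmu-miR-125b-5p, was at 282, 666 and 3674 normalized counts (lowest, median and highest) in A30P libraries, against 27611, 32941 and 51737 in WT libraries. These groups did not overlap either. The log2 fold change was -5.52 (SE 0.44, limma adjusted p = 7.2e-09, lower in 7 of 7 A30P samples). A30P replicate 6, the deepest A30P library, held the highest value in its group for both guide strands, and the WT mean was still 12.2-fold and 9.42-fold above it for miR-125a-5p and miR-125b-5p. Without the 4 A30P libraries under 100000 reads both calls remained.

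miR-351-5p, the rodent family member encoded on the X chromosome, was sparse in each group. It was listed at 0 in 5 of 7 A30P libraries, with 20.1 normalized counts (1 read) in replicate 2 and 12.7 (73 reads) in replicate 6. In WT libraries its lowest, median and highest values were 18.5, 33.1 and 55.4 normalized counts, and the groups overlapped. Its log2 fold change of -3.93 (SE 0.73, limma adjusted p = 0.00011) reflects the pseudocount where reads were absent, and the fall missed the threshold in edgeR with TMM scaling (-1.44, adjusted p = 0.0521). At the WT mean level at least 3 reads would have been found in only 3 of the 7 A30P libraries, so a lower level was not detectable in the other 4.

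**Figure D1:**
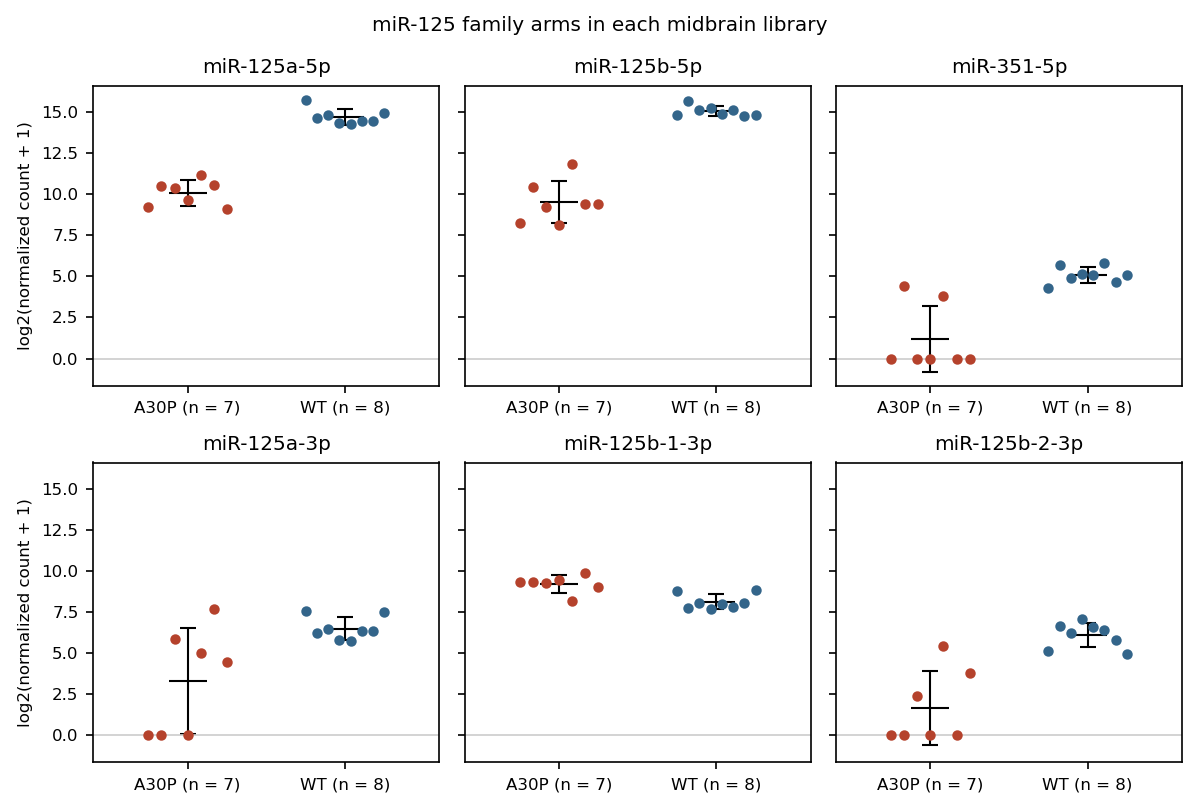
Each point is a midbrain library, with log2(normalized count + 1) on the vertical axis and A30P left of WT in each panel. Horizontal bars and whiskers give mean and SD (n = 7 A30P, n = 8 WT). The groups are apart for miR-125a-5p and miR-125b-5p, points at 0 are libraries without reads, and miR-125b-1-3p is the member whose A30P mean lies above its WT mean, a direction that turns in the authors' deposited table.

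The 3p strands did not move as a set. The passenger strand of Mir125b-1, mmu-miR-125b-1-3p, was at 282, 632 and 922 normalized counts (lowest, median and highest) in A30P libraries, against 204, 255 and 447 in WT libraries. A30P replicate 6 fell within the WT range and the other 6 A30P libraries lay above it. The highest WT values, 443 and 447, were those of replicates 1 and 8, the 2 shallowest WT libraries. The log2 fold change was 1.09 (SE 0.42, limma adjusted p = 0.0238), it was -0.18 (adjusted p = 0.648) in the authors' deposited table, and the rise was not called with total-count scaling (0.41, adjusted p = 0.452) or without the 4 A30P libraries under 100000 reads (0.71, adjusted p = 0.149). DESeq2 on the recovered reads gave 1.05 (adjusted p = 0.0028). The sign of the deposited fold change thus differs from that of the deposited counts, and the cause was not tested. Its share of listed reads averaged 0.0548% ± 0.0151 (SD, n = 7 A30P) and 0.0462% ± 0.0298 (SD, n = 8 WT).

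The passenger strand of Mir125a, mmu-miR-125a-3p, had no reads in A30P replicates 1, 2 and 4. It was at 20.6, 31.3, 55.4 and 205 normalized counts in A30P replicates 8, 6, 3 and 7, the last from 4 reads. In WT libraries the lowest, median and highest values were 51.3, 79.8 and 189. The groups overlapped, and the log2 fold change of -3.20 (SE 1.09, limma adjusted p = 0.0116) was -0.66 by edgeR under TMM scaling (adjusted p = 0.430) and -1.45 by edgeR under the deposited size factors (adjusted p = 0.0569). In limma under TMM scaling it was -2.32 (adjusted p = 0.0964). It was -3.94 without A30P replicate 7, the library with 4 reads, and -1.39 (adjusted p = 0.0392) without the 4 A30P libraries under 100000 reads.

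miR-125b-2-3p had reads in 3 of 7 A30P libraries, at 4.26, 12.9 and 41.4 normalized counts in replicates 3, 8 and 6. In WT libraries the lowest, median and highest values were 29.8, 78.2 and 132. Its log2 fold change was -4.43 (SE 0.84, limma adjusted p = 0.00012), and the fall was not called by edgeR under TMM scaling (-0.96, adjusted p = 0.938) or by the authors' deposited table (-0.51, adjusted p = 0.401). It was -5.05 without A30P replicate 6, and -2.22 (limma adjusted p = 0.0119) without the 4 A30P libraries under 100000 reads. In 2 of the 7 A30P libraries fewer than 3 reads would have been found at the WT mean level.

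**Figure D2:**
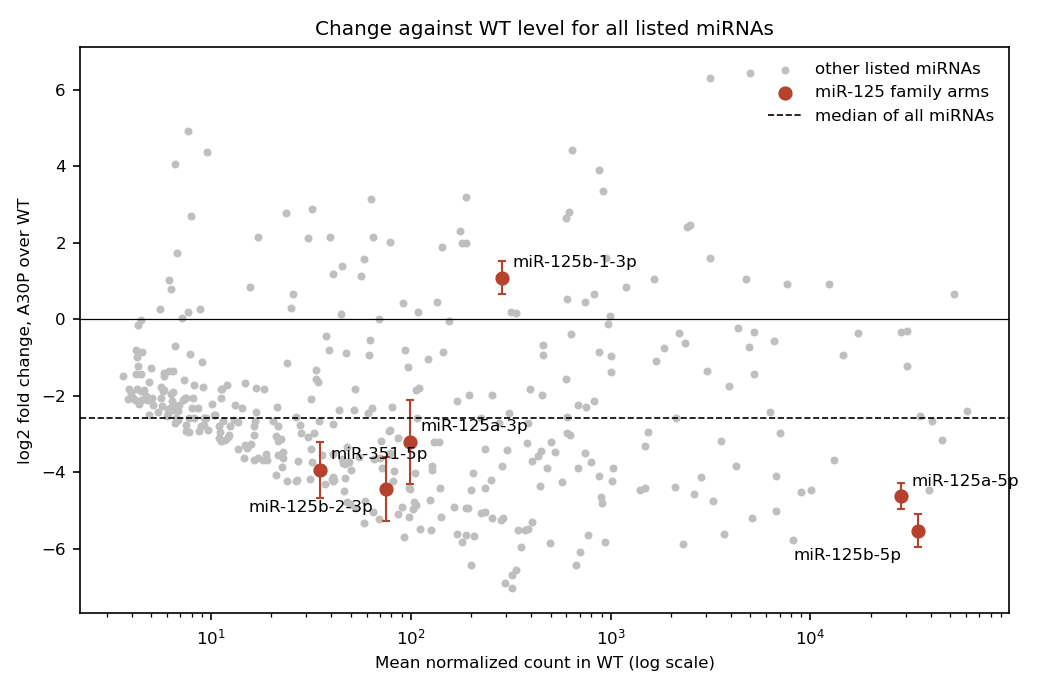
Each point is a listed miRNA, with its mean normalized count in WT on a log axis and its log2 fold change, A30P over WT, on the vertical axis. Bars on the family members are SE, and the dashed line is the median of all 396 miRNAs at -2.57. The 2 guide strands lie among the most abundant miRNAs and below the dashed line, and miR-125b-1-3p lies above 0 at 1.09, where the authors' deposited table has -0.18.

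As shares of listed reads, which no size factor enters, the guide strands stood near the top of the profile in WT libraries and lower in A30P libraries. A share depends on what else fills the library: miR-148a-3p and miR-151-3p together took 13.9% to 80.1% of listed reads in A30P libraries and 0.842% to 2.51% in WT libraries. miR-125a-5p took 0.131% ± 0.120 of reads in A30P libraries and 4.46% ± 2.62 in WT libraries (SD, n = 7 and n = 8). miR-125b-5p took 0.130% ± 0.209 and 5.07% ± 1.13 in A30P and WT libraries. The smallest gap for miR-125b-5p lay between A30P replicate 6 at 0.603% (Wilson 95% interval 0.595% to 0.611%) and WT replicate 5 at 3.50% (3.49% to 3.51%). These intervals cover counting error only, since reads carried no molecular identifiers. Among all listed miRNAs by reads, miR-125b-5p ranked between 26 and 68 in A30P libraries and between 3 and 10 in WT libraries. miR-125a-5p ranked between 31 and 53 in A30P libraries and between 2 and 13 in WT libraries. Together the 3 arms with the seed CCCUGAG made up 0.0784% to 0.989% of reads in A30P and 5.80% to 14.6% in WT libraries. WT replicates 1 and 8 held the highest shares, 14.3% and 14.6%. Among reads other than those of miR-148a-3p and miR-151-3p, a base chosen after the values were seen, they made up 0.246% to 1.15% in A30P and 5.87% to 15% in WT libraries, and the groups did not overlap.

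Within this seed pool the 2 guide strands were of similar size. miR-125a-5p made up 59.1% ± 14.0 of the pool in A30P libraries and 44.3% ± 10.7 in WT libraries (SD, n = 7 and n = 8), and miR-351-5p at most 0.699% and 0.0951%. The log2 ratio of miR-125b-5p to miR-125a-5p was -1.40, -0.98 and 0.65 (lowest, median and highest) in A30P libraries and -0.95, 0.46 and 1.00 in WT libraries. The groups overlapped, with a difference of -0.88 (exact permutation test over 6435 splits, two-sided, p = 0.0389), a ratio 1.84-fold lower in A30P. This did not hold up. The exact permutation p was 0.0513 to 0.0823 when A30P replicate 1, 3, 4 or 7 or WT replicate 2, 3, 4, 5, 6 or 7 was left out, and the difference was -0.41 (exact permutation p = 0.461) without the 4 A30P libraries under 100000 reads.

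The balance between the arms of a hairpin is read within a library and does not depend on scaling. For Mir125b-1 the 5p share against the 3p arm was lower in A30P midbrain, and the arms were near parity there. For Mir125a and Mir125b-2 it was lower in the A30P libraries with at least 3 reads of the 3p arm, and the others could not be resolved. The log2 ratio of 5p to 3p reads, with 0.5 reads added to each, was fitted by limma over all 106 hairpins with both arms listed. In that fit 62.3% of hairpins were called, 33.0% downward and 29.2% upward, and the median change was -0.01. All 3 miR-125 hairpins passed downward, but Mir125b-1 and Mir125b-2 share the reads of miR-125b-5p and are not independent. For Mir125a and Mir125b-2 some A30P libraries had no 3p reads. There the 0.5 reads added put the ratio below the WT range in any case, so those libraries cannot decide the change.

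For Mir125b-1 there were 0.417 to 13.0 reads of miR-125b-5p per read of miR-125b-1-3p in A30P libraries, against 64.4 to 250 in WT libraries. In 4 of the 7 A30P libraries, replicates 1, 3, 4 and 7, the 3p arm had more reads than the 5p arm. Replicate 6 had the highest A30P ratio, and the groups did not overlap. The log2 ratio was 0.35 ± 1.68 in A30P libraries and 6.95 ± 0.70 in WT libraries (SD, n = 7 and n = 8), a change of -6.60 (SE 0.66, limma adjusted p = 4.4e-08, lower in 7 of 7 A30P samples) and a 97.2-fold lower ratio. Of the 106 hairpins, 13.2% had a lower ratio in every A30P library than in any WT library, and Mir125b-1 ranked 3 by size of downward change. Every A30P library held at least 12 reads of the 3p arm, and the change was -5.61 (limma adjusted p = 9.0e-05) without the 4 A30P libraries under 100000 reads.

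For Mir125a the ratio could be read in the 4 A30P libraries with 3p reads. It was 7.50, 24.3, 26.8 and 74.6 reads of miR-125a-5p per read of miR-125a-3p in A30P replicates 7, 3, 8 and 6, against 177 to 386 in WT libraries. A30P replicates 1, 2 and 4 had no 3p reads, and taking 3 reads as the limit that a count of 0 allows, their ratios were at least 11.3, 24.0 and 4.67. Whether they lay below the WT range or within it could not be resolved. The change in log2 ratio was -3.06 (SE 0.59, limma adjusted p = 0.00014), and -3.10 (adjusted p = 0.00023) without the 4 shallow libraries.

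For Mir125b-2 the ratio was 52.2, 88.6 and 141 in A30P replicates 8, 6 and 3, against 290 to 968 in WT libraries. These rest on 5, 238 and 2 reads of the 3p arm. With only 2 reads, whether replicate 3 lay below the WT range or within it could not be resolved. The other 4 A30P libraries had no reads of miR-125b-2-3p. By the same limit of 3 reads their ratios were at least 5.67, 23.3, 1.67 and 4.33 in replicates 1, 2, 4 and 7. Whether these libraries lay below the WT range or within it could not be resolved. The change in log2 ratio was -3.36 (SE 0.58, limma adjusted p = 3.8e-05), and -2.70 (adjusted p = 0.00084) in the 3 deeper A30P libraries against all WT libraries. It depended on the reads added where the 3p arm was at 0, at -2.02 (adjusted p = 0.0160) with 0.1 reads, and for Mir125a at -2.04 (adjusted p = 0.0448).

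**Figure D3:**
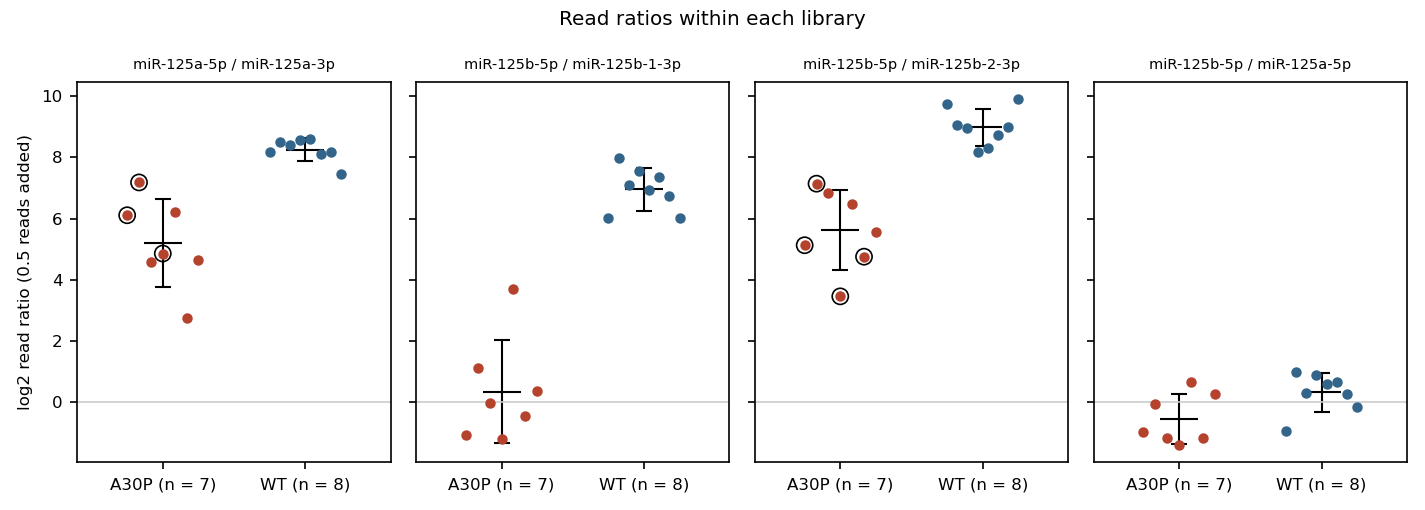
Each point is the log2 ratio of reads of the named arms in a library (0.5 reads added), with A30P left of WT and bars for mean and SD (n = 7 and n = 8). Ringed points had no reads of the arm in the denominator, so the 0.5 reads added set their height in part. For miR-125b-5p over miR-125b-1-3p the A30P mean is 0.35 and the WT mean 6.95, and for miR-125b-5p over miR-125a-5p the groups overlap.

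**Figure D4:**
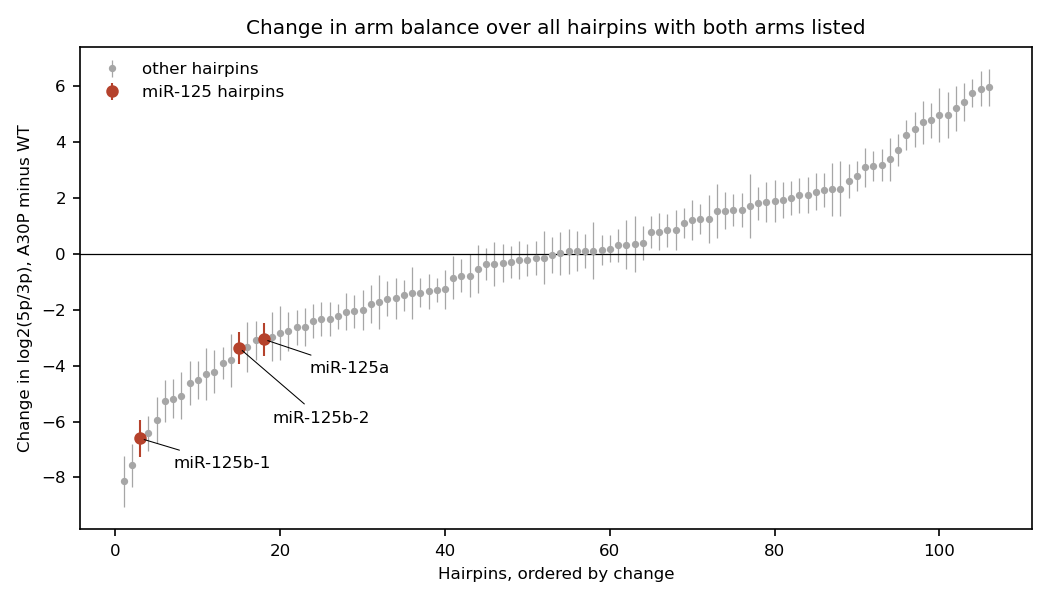
The 106 hairpins with both arms listed are ordered by their change in log2(5p/3p), A30P minus WT, on the vertical axis, with SE as bars. The 3 miR-125 hairpins lie on the lower side at -6.60, -3.36 and -3.06, among hairpins that changed in each direction.

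The 3p arms of the 2 miR-125b hairpins could also be set against each other. There were 6.81, 40.6 and 144 reads of miR-125b-1-3p per read of miR-125b-2-3p in A30P replicates 6, 8 and 3, against 1.55 to 15 in WT libraries. These ratios rest on 238, 5 and 2 reads of miR-125b-2-3p, so those of replicates 8 and 3 are uncertain. In WT libraries the ratio was 13.4 in replicate 1 and 15 in replicate 8, and between 1.55 and 4.85 in the other 6. The deepest A30P library therefore lay within the WT range.

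Each miR-125 gene is part of a conserved cluster, and the miR-99/100 and let-7 neighbours give a reference from the same locus. let-7, like lin-4, times development in worms, and the miR-99/100 miRNAs act on mTOR and its partners. Of 12 neighbour arms listed, 2 rose, 9 fell and 1 did not pass by limma, with a median log2 fold change of -1.63, beside -2.57 for all miRNAs, of which 71.0% fell and 8.33% rose. The 12 include 3 sparse arms around Mir351, all called lower by limma, which belong to neither the miR-99/100 nor the let-7 family. In edgeR with TMM scaling 2 of 10 tested rose and 3 fell, beside 19.5% and 35.5% of all tested. The share of neighbours that fell was thus near that of all miRNAs in each fit. Mature let-7a-5p also comes from other let-7a hairpins and let-7c-5p from another let-7c hairpin, so their reads are not specific to a locus.

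The closest neighbours lie beside Mir125a, with 554 bases between Mir99b and Mir125a and 367 between Mirlet7e and Mir125a. miR-99b-5p was at 9369, 13860 and 15093 normalized counts (lowest, median and highest) in A30P libraries, against 4283, 6115 and 17748 in WT libraries. Its rise (log2 fold change 0.92, SE 0.30, limma adjusted p = 0.0080) was not called with total-count scaling (adjusted p = 0.610) or in the authors' deposited table, which gives 0.18 (adjusted p = 0.799). miR-99b-3p rose without overlap, at 290 ± 97.8 in A30P and 65 ± 22.8 in WT libraries (log2 fold change 2.14, SE 0.53, limma adjusted p = 0.0014). let-7e-5p fell by 1.42 on the log2 scale (SE 0.33, limma adjusted p = 0.00071), and was not called by edgeR under TMM scaling (adjusted p = 0.177). let-7e-3p had reads in 1 of 7 A30P libraries, against 58.0 ± 19.1 normalized counts in WT libraries. In the shallowest A30P library 1 read weighed 56.4.

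Per library, miR-125a-5p had 0.0369 to 0.201 reads for each read of miR-99b-5p in A30P and 1.80 to 6.77 in WT. For each read of let-7e-5p it had 0.326 to 1.51 in A30P libraries and 4.44 to 10.3 in WT libraries. The groups did not overlap in either ratio, which no scaling enters. These ratios were chosen after the values were seen and were not tested. The share of other ratios without overlap was not worked out, and for single miRNAs every A30P library lay below every WT library in 23.7%.

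At the miR-125b loci the hairpins lie farther apart, with 50421 bases from Mir100 to Mir125b-1 and 47272 from Mir99a to Mir125b-2. miR-100-5p was at 9122 ± 6820 normalized counts in A30P and 14526 ± 3580 in WT libraries (log2 fold change -0.94, limma adjusted p = 0.0272), with the opposite sign by edgeR under TMM scaling (0.39, adjusted p = 0.457). Its call was also lost without A30P replicate 1, 4 or 7 (limma adjusted p = 0.0501, 0.0722 and 0.0617). miR-99a-5p fell to 6870 ± 3832 in A30P, against 35392 ± 7055 in WT libraries (log2 fold change -2.52, SE 0.31, limma adjusted p = 1.6e-06). let-7a-5p fell by 1.22 on the log2 scale (limma adjusted p = 0.00037), and was not called by edgeR under TMM scaling (adjusted p = 0.543). let-7c-5p did not pass (-0.30, limma adjusted p = 0.425, with 0.57 by edgeR under TMM scaling), but was called lower with total-count scaling (-0.98, limma adjusted p = 0.0175) and by the authors' deposited table (-1.69, adjusted p = 0.00118). let-7c-1-3p had reads in 1 of 7 A30P libraries, against 24.0 ± 6.82 normalized counts in WT libraries. In A30P replicates 1, 2, 4 and 7, 1 read weighed 17.5, 20.1, 56.4 and 51.2, so a lower level was not detectable there.

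miR-125b-5p had 0.0503 to 0.205 reads per read of miR-100-5p in A30P libraries and 1.52 to 3.78 in WT libraries. Against miR-99a-5p it had 0.0457 to 0.255 in A30P and 0.714 to 1.33 in WT libraries. The ratios to miR-100-5p and miR-99a-5p were also chosen after the values were seen and were not tested. Around Mir351 on the X chromosome 3 neighbour arms were listed, all under 35 normalized counts on average. miR-503-3p was called lower (0.149 ± 0.395 in A30P, 6.63 ± 2.52 in WT libraries, limma adjusted p = 1.3e-06) on reads in 1 of 7 A30P libraries, at a level below the weight of 1 read in the shallow ones. The falls of miR-322-3p (limma adjusted p = 0.0400) and miR-450a-5p (adjusted p = 0.0054) rested on reads in 3 and 2 of 7 A30P libraries, and that of miR-322-3p was lost in 10 of the 15 fits that leave out a library. The mean of miR-322-3p was higher in A30P (31.2) than in WT libraries (21.3), against the sign of its log2 fold change of -2.29.

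**Figure D5:**
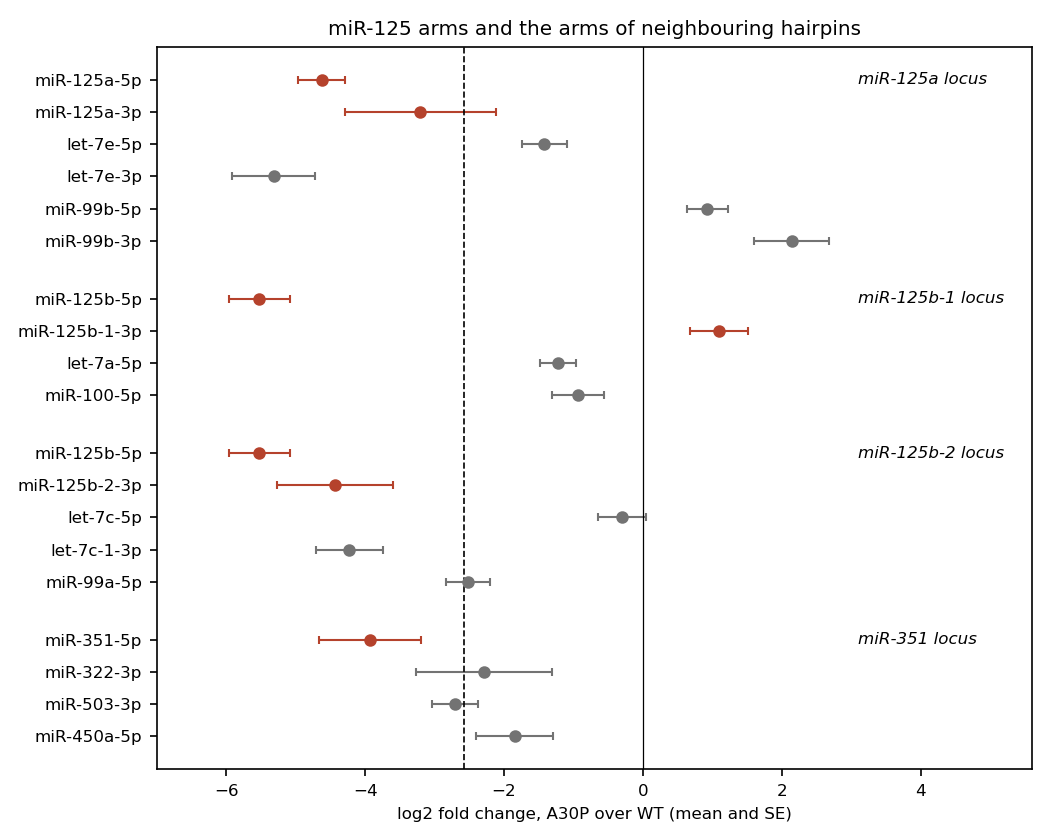
Log2 fold changes, A30P over WT, with SE are shown for family arms (red) and the listed arms of neighbouring hairpins (grey), grouped by locus, and miR-125b-5p appears at both of its loci. The dashed line is the median of all miRNAs. miR-125a-5p at -4.63 and miR-125b-5p at -5.52 lie left of it, whereas miR-99b-5p and miR-99b-3p lie right of 0. The sign of miR-125b-1-3p turns in the authors' deposited table, and those of miR-100-5p and let-7c-5p turn with TMM scaling.

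Among the 323 other miRNAs averaging 10 or more normalized counts in A30P or WT libraries, the profile over the 15 libraries nearest to that of miR-125a-5p was miR-328-3p, a brain-enriched miRNA. Nearness was the root-mean-square difference of centred log2(value + 1), here 0.51 against a median of 2.04 over all. let-7c-1-3p (0.72) and miR-935 (0.81) followed, and miR-125b-5p was in place 4 (0.82). Nearest to miR-125b-5p were miR-191-5p (0.52), let-7e-3p (0.57) and miR-30c-5p (0.72), with miR-125a-5p in place 8. This is a description, and the difference between the groups and the shared library depths enter it. let-7c-1-3p and let-7e-3p had reads in only 1 of 7 A30P libraries each, so zeros with the pseudocount enter their nearness as well.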

How the data were processed

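Total RNA of 15 midbrain samples was profiled by small RNA sequencing, 7 A30P and 8 WT. Per the labels' protocols, Trizol extraction was followed by a TruSeq small RNA kit. The name NEB that opens each library's column in the table leaves the kit uncertain. Columns named CT were read as WT and matched by number. The submitters' processing notes name mm9 and DESeq (no version). The sources used here do not name the aligner, the counter or the annotation.

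The deposited signal values are normalized counts, read counts over a per-library size factor set by the authors. In each of the 15 libraries 100% of values were whole multiples of a single step (within 1e-05 of their size), which gave whole reads. The authors also deposited log2 fold changes with standard errors, p-values and adjusted p-values, printed only where their table is named, and group means and test statistics, treated as a score of unstated scale and not used. For some miRNAs the deposited fold change differs in sign from the deposited normalized counts. For example, miR-9-5p averaged 12435 in A30P and 60493 in WT libraries, with a deposited log2 fold change of 0.48. The cause was not tested.

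The main test was limma 3.58.1 (trend, robust; R 4.3.3) on log2(value + 1) for miRNAs averaging 1 or more in A30P or WT, a filter that the 396 miRNAs and so the 6 members passed, without covariates, with Benjamini-Hochberg adjustment. On this scale a fold change of a sparse miRNA depends on the pseudocount where libraries hold no reads: for miR-351-5p, miR-125a-3p and miR-125b-2-3p the falls were larger than in edgeR with the same deposited size factors (-2.55, -1.45 and -2.26). Arm ratios used limma (robust) on recovered reads of hairpins whose arms together averaged at least 10 reads over the A30P or the WT libraries. edgeR 4.0.16, DESeq2 1.42.0 and limma-voom on recovered reads, other scalings, pseudocounts, filters and left-out libraries were alternatives. Single ratios used exact permutation (Python 3.11.15, numpy 2.4.6). Fits were tested on simulated counts, for arm ratios at equal depth only, which does not cover shallow libraries. Sequences are RefSeq's (GRCm38.p6) and were matched by name.

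The members, lists and tests were chosen with earlier results of these data known. Named are the members, their cluster neighbours, markers and the 3 nearest profiles of each abundant 5p arm. Same-numbered libraries did not deviate together (correlation of deviations -0.172 to 0.351, above 0.1 in 2 of 7 pairs), so numbers were not taken as pairs.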

Additional observations from a re-analysis of the deposited data

Results flagged for a closer look

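In 22 sets of values (6 members and 5 ratios, in each genotype) a library far from the others of its group was looked for, by its gap to the nearest library over the group's range, and 6 were found. Chance flags about 1 in 20 such sets if values are normally distributed. Normalized counts, some of them 0, need not be, so the 6 cannot be set against that rate. For miR-125a-5p, WT replicate 1 stood at 55230 normalized counts, with the other WT libraries at 19793 to 31919. For miR-125b-5p, A30P replicate 6, the deepest A30P library, stood at 3674, with the others at 282 to 1407, and WT replicate 2 at 51737, with the others at 27611 to 38367. For miR-125a-3p, A30P replicate 7 stood at 205 normalized counts, from 4 reads, with the others at 0 to 55.4. For miR-125b-2-3p, A30P replicate 6 stood at 41.4, with the others at 0 to 12.9. The log2 ratio of miR-125a-5p to miR-125a-3p was 7.47 in WT replicate 8, with the other WT libraries at 8.12 to 8.59.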

How the results depend on the processing

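miR-125a-5p and miR-125b-5p fell in all 29 alternatives run, with log2 fold changes of -5.31 to -3.41 and of -6.21 to -3.61. The change in 5p to 3p balance passed downward in all 22 alternatives for Mir125a (-3.51 to -2.04), Mir125b-1 (-7.16 to -5.61) and Mir125b-2 (-3.95 to -2.02). For Mir125a and Mir125b-2 only the fit without the A30P libraries under 100000 reads leaves out every library with the 3p arm at 0. In the other fits the reads added set the ratio of such libraries in part. The number of miRNAs called, 314 by limma, was 175 in edgeR with TMM scaling (62 higher, 113 lower), 165 by limma-voom under TMM scaling (77 higher and 88 lower), 174 by the authors' deposited adjusted p (39 higher, 135 lower) and 299 to 325 without any 1 library. The number of hairpins called, 66, was 61 to 68 without any 1 library. For the sparse members, leaving out any 1 library kept every call, and the calls below were lost, where the cause was not tested. miR-351-5p was at -1.44 by edgeR and -0.81 by limma-voom under TMM scaling. miR-125a-3p was at -2.32 in limma with TMM scaling, -0.66 in edgeR with TMM scaling, -1.45 in edgeR with the deposited size factors and -0.36 in limma-voom. miR-125b-2-3p was at -0.96 in edgeR with TMM scaling, -0.93 in limma-voom and -0.51 in the authors' deposited table. The rise of miR-125b-1-3p was 0.41 with total-count scaling and 0.71 without the A30P libraries under 100000 reads, and its sign turned in the authors' deposited table (-0.18). That deposited sign differs from the one of the deposited counts, on which DESeq2 gave 1.05. With the replicate number as a block, which drops WT replicate 5, it was 1.07 (limma adjusted p = 0.0892), and the log2 ratio of miR-125b-5p to miR-125a-5p differed by -0.84 (exact sign-flip permutation p = 0.0781). No other member's call changed with the block. 1 of the 7 A30P libraries was nearest to the WT library of its own number. That log2 ratio differed by -1.08 to -0.74 without any 1 library and by -0.41 without the shallow A30P libraries. Among neighbours and nearest profiles the sign turned for miR-100-5p (0.19 in limma and 0.39 in edgeR with TMM scaling, 0.38 in limma-voom, 0.57 in the authors' deposited table), for let-7c-5p (0.83, 0.57 and 0.74 in the first 3 of these, and called lower at -0.98 with total-count scaling and -1.69 in the authors' deposited table), for miR-322-3p (0.0275 in edgeR with TMM scaling, 0.39 in limma-voom) and for miR-450a-5p (0.40 in the authors' deposited table). Depth limits the 3p arms and miR-351-5p, which at WT levels would leave under 3 reads in 2 to 4 of the A30P libraries for all but miR-125b-1-3p.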
